A study of Rattus norvegicus with 36 samples.

Results

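Whole lung of Lewis rats was compared with whole lung of Fisher rats on postnatal day 1 (PN1), using the 3 arrays titled Lewis at PN1 and the 4 arrays titled Fisher at PN1. They belong to a series of 36 rat lung arrays, which also holds Brown Norway rats and the later ages PN7 and PN14. Total RNA was labelled with biotin and hybridised to a 1-colour Illumina beadchip with 22226 probes. Animals of both groups are described by strain, age and tissue alone, and no treatment or engineered allele is named. All 7 arrays lay on slide 1, Lewis at positions A to C and Fisher at positions D to G, so strain and position on the slide cannot be told apart. The labels do not say that replicates came from separate pups or give the sex of the pups. The p-values cover only the spread within groups among the arrays fitted, the 23 Lewis and Fisher arrays of PN1, PN7 and PN14. That spread may be technical. The sex-specific genes of the gene lists had no named probe on the array.

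A rat lung is in the saccular stage at birth. Its air sacs are lined by type I cells, which carry gas exchange, and type II cells, which make surfactant, and the walls between them are still thick and rich in dividing cells. Alveoli form over the following weeks as these walls fold and thin. Lewis and Fisher are inbred albino laboratory strains, and the series addressed how strain background shapes gene expression in the growing lung.

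Levels below are normalized log2 intensities, on which a probe without signal reads close to 8, and a difference is Lewis minus Fisher on that log2 scale. Per-array values are given in the order Lewis 1, 2 and 3, then Fisher 1, 2, 3 and 4. The arrays detected 9942 to 10434 probes at a detection p under 0.01, and their median raw signal lay between 235 and 261. Across the 10368 probes tested, the Lewis arrays correlated with each other at 0.995 to 0.998. Fisher arrays 1, 3 and 4 correlated at 0.995 to 0.997, Fisher 2 with the other Fisher arrays at 0.984 to 0.991, and Lewis with Fisher arrays at 0.968 to 0.985. The mean level per array was 12.69 to 13.53 for 7 surfactant and type II cell genes and 11.79 to 12.21 for 14 endothelial genes. Acta2, the actin of smooth muscle, had no named probe, and the type 2 cytokines Il4 and Il13 were detected on 0 of the 7 arrays.

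Fisher 2 carried signal of T cell genes, Rag1 and Ucp1, called thymus and brown fat signal here. Heart signal varied between the arrays. Cd3d, a chain of the T cell receptor complex, read 8.36, 8.37 and 8.38 in Lewis and 8.34, 11.76, 8.50 and 8.33 in Fisher. Rag1, which cuts receptor genes in developing lymphocytes, was detected on 1 array, Fisher 2, at 10.25. Fisher 2 stood alone in both genes. Ucp1, the uncoupling protein of brown fat, was also detected on Fisher 2 alone, at 9.51 against 8.03 to 8.14 on the other arrays. The mean of the 6 tested T cell genes was 10.71 on Fisher 2 and between 8.34 and 8.46 on the other 6 arrays. The 3 tested genes of the thymus list, Lef1, Ccl25 and Cd1d1, did not stand out there. Their mean was 8.93 on Fisher 2 and between 8.82 and 8.97 on the other arrays. Dntt, another gene of that list, was detected on 0 arrays. The mean of the 10 tested heart genes was 10.25, 9.52 and 8.98 in Lewis and 11.39, 13.36, 10.63 and 10.06 in Fisher. Lewis 1 lay above Fisher 4, so the groups overlapped. Of the 10 tested heart genes 1 passed lower, against 7.74% of all probes, and 0 passed higher. The 1 was Nppa, the hormone of the atria, which read 8.29, 8.15 and 8.17 in Lewis and 12.35, 15.83, 11.37 and 8.70 in Fisher. It was detected on 1 of 3 Lewis arrays and on all 4 Fisher arrays, and its difference of -3.86 (SE 1.01, adjusted p = 0.0112) did not pass without Fisher 1 and Fisher 2 (adjusted p = 0.127). Ankrd1, a muscle repeat protein that the heart expresses strongly, was also lower in Lewis (-1.83, adjusted p = 0.0333), with overlapping groups, and did not pass without Fisher 2 (adjusted p = 0.104). How far the heart, thymus and brown fat signal contributes to other differences was not tested, and calls of named genes that were lost without Fisher 2 are marked where they are given.

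**Figure D1:**
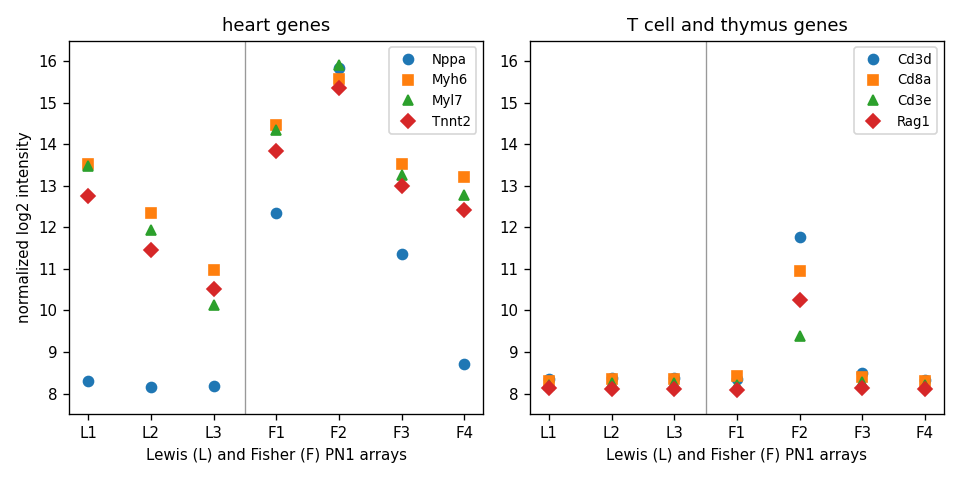
Normalized log2 intensity of 4 heart genes (left) and 4 T cell or thymus genes (right) on each Lewis (L1 to L3) and Fisher (F1 to F4) array at PN1, with 1 point per gene and array. Nppa stays near 8 on the Lewis arrays and reaches 15.83 on F2, while Cd3d, Cd8a, Cd3e and Rag1 stand above the other arrays on F2.

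The strains differed widely on day 1, mostly by small amounts. In limma, 1693 of 10368 tested probes (16.3%) passed an adjusted p of 0.05, 890 (8.58%) higher and 803 (7.74%) lower in Lewis. The median size of a passing difference was 0.34, and 104 probes (1.00% of those tested) also differed at least 2-fold, 64 higher and 40 lower. With each array scaled to its median, in place of quantile normalization, the median of all probes moved from 0 to -0.14. The call count was then 1325, with 198 higher and 1127 lower, so the balance of directions depends on the scaling. In the authors' deposited log2 values 1674 probes passed, 903 higher and 771 lower. Without Fisher 2, 1396 probes passed (13.5% of those tested), 708 (6.83%) higher and 688 (6.64%) lower. Of the 1693 calls, 1303 were also made without Fisher 2 in the same direction, 390 were lost, and 0 changed sign. Of the 104 probes at least 2-fold apart, 2 no longer passed. Lewis and Fisher arrays did not overlap for 1610 of the 1693 called probes, against 2974 (28.7%) of all tested probes.

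**Figure D2:**
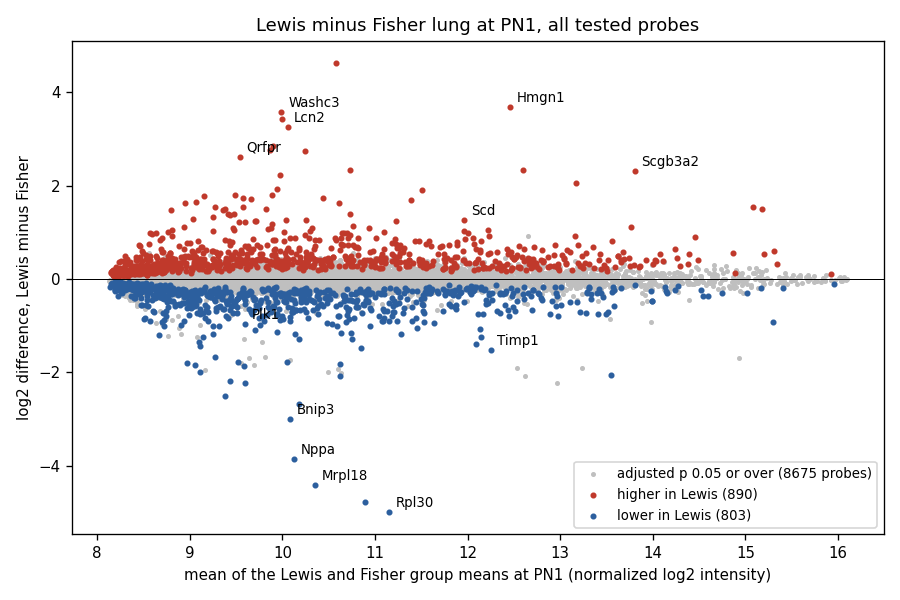
Log2 difference between Lewis and Fisher lung at PN1 (vertical axis) against the mean of both group means (horizontal axis, normalized log2 intensity), with 1 point per tested probe. The 890 probes higher in Lewis are red and the 803 lower are blue; Rpl30 (-4.99) is the lowest named gene and Hmgn1 (3.69) the highest, and the topmost point and the point next to Rpl30 are probes with no gene symbol.

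Genes with the largest excess in Lewis came from many processes, and several read near background in Fisher. Hmgn1, a protein that binds nucleosomes and loosens chromatin, read 14.24, 14.30 and 14.38 in Lewis and 10.85, 10.17, 10.31 and 11.12 in Fisher. The groups lay far apart, with a 12.9-fold difference (log2 3.69, SE 0.18, adjusted p = 8.71e-12). Washc3, a subunit of the WASH complex that drives actin growth on endosomes, read 11.85, 11.76 and 11.72 in Lewis and 8.29, 8.09, 8.10 and 8.33 in Fisher, where 2 of 4 arrays detected it. Its 11.9-fold difference (adjusted p = 2.39e-16) therefore depends on how background was handled. Lcn2, an iron-trapping protein of neutrophils and airway epithelium, read 11.70, 11.55 and 11.81 in Lewis and 8.50, 8.24, 8.31 and 8.64 in Fisher. Every Lewis array lay above every Fisher array, and the group means were 9.61-fold apart (log2 3.26, SE 0.15, adjusted p = 3.67e-12). Scgb3a2, a secretoglobin released by airway club cells, was already abundant in Fisher, at 12.84, 12.10, 12.68 and 13, and stood at 15.16, 14.94 and 14.79 in Lewis. That is a 4.96-fold difference (log2 2.31, SE 0.16, adjusted p = 2.95e-09). By contrast Scgb1a1, the main club cell secretoglobin, lay between 15.98 and 16.08 in both groups with a difference of 0.04 (adjusted p = 0.43), at a level where the array has little room to rise.

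The other genes among the 14 highest ranged from 1.74 to 2.85. Lgals5, a galectin of rat red cell precursors, was 2.85 higher (SE 0.26), and Cd2bp2, a splicing protein, 2.75 higher (SE 0.11). Qrfpr, a receptor for a neuropeptide of appetite control, was 2.61 higher, with 2 of 4 Fisher arrays detecting it. Olfm1, a secreted olfactomedin of neural tissue, was 2.34 higher, at 11.90, 11.87 and 11.92 in Lewis against 9.69, 9.52, 9.46 and 9.54 in Fisher. Fmod, the collagen-binding proteoglycan fibromodulin, was 1.90 higher and read 12.56, 12.47 and 12.36 against 10.60, 10.34, 10.56 and 10.75. In each of these genes the lowest Lewis array lay above the highest Fisher array. Socs5, a suppressor of cytokine signalling, and Rhbdf1, which guides the release of growth factors, were both 1.81 higher. Lrrc42 was 2.24, the organic anion transporter Slco1a5 1.79 and the hydrolase Bphl 1.74 higher. For the 14 genes the adjusted p ranged from 2.39e-16 for Washc3 to 9.59e-08 for Lgals5.

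Genes with the largest deficit in Lewis were led by 2 ribosomal protein genes. Rpl30, a protein of the large cytosolic ribosomal subunit, read 8.25, 8.30 and 9.41 in Lewis and 13.62, 13.55, 13.80 and 13.62 in Fisher. Mrpl18, of the mitochondrial ribosome, read 8.07, 8.10 and 8.25 in Lewis, detected on 1 of 3 arrays, and 12.50, 12.61, 12.60 and 12.51 in Fisher. Rpl30 was 31.7-fold lower in Lewis (SE 0.36, adjusted p = 3.64e-09). Lewis 1 and Lewis 2 read close to background and Lewis 3 above them, so this size also depends on how background was handled. Mrpl18 was lower by -4.41 on the log2 scale (SE 0.11, adjusted p = 1.94e-16), a size that depends on how background was handled, since Lewis lay at background. The 4 Brown Norway arrays of the same slide read 13.69 to 13.93 for Rpl30 and 12.08 to 12.33 for Mrpl18, near the Fisher level. Probe signal can also fall where a strain carries a base change in the probed stretch, and strain sequences were not compared here. Among 57 tested cytosolic ribosomal protein genes, 1 passed higher, against 8.58% of all probes, and 4 lower, against 7.74%. Their median was -0.03 against 0 for all probes. Rpl6 was lower (-0.93) and Rpl17 higher (0.33). Among 55 mitochondrial ribosomal protein genes, 5 passed higher, led by Mrpl17 (1.66), and 3 lower, with a median of -0.06. These counts too stand against 8.58% and 7.74% of all probes.

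Bnip3, which marks mitochondria for removal and responds to low oxygen, read 8.51, 8.53 and 8.73 in Lewis and 11.43, 11.94, 11.41 and 11.53 in Fisher. The groups were 7.94-fold apart (log2 -2.99, SE 0.14, adjusted p = 6.28e-12). In the hypoxia and glycolysis list 2 of 16 genes were higher, against 8.58% of all probes: Vegfa (0.59) and P4ha1 (0.44). Lower were 2, against 7.74%: Bnip3 itself and Pdk1 (-0.42). The call of Pdk1 was lost without Fisher 2 (adjusted p = 0.0718). Timp1, an inhibitor of matrix metalloproteinases, read 11.52, 11.46 and 11.48 in Lewis and 12.99, 12.98, 13.08 and 12.97 in Fisher, 2.86-fold lower (SE 0.10, adjusted p = 5.54e-10). Nos3, the endothelial nitric oxide synthase, read 8.39, 8.43 and 8.36 against 9.83, 9.96, 9.66 and 9.84, 2.69-fold lower (SE 0.08, adjusted p = 4.19e-11). The endothelial list, which does not hold Nos3, had 1 of 14 genes higher (Calcrl, 0.49), against 8.58% of all probes, and 0 lower. The call of Calcrl was lost without Fisher 2. Itga1, a collagen-binding integrin chain, was lower by -1.40, and Umps, the last enzyme of uridine monophosphate synthesis, by -1.67. The remaining genes of the 14 lowest were Plekhf2 (-2.51), detected on 1 of 3 Lewis arrays, Zcchc9 (-2.23), the splicing factor gene Bcas2 (-2.07), Farp1 (-1.86) and Wfdc21 (-1.77), beside the heart genes described above.

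**Figure D3:**
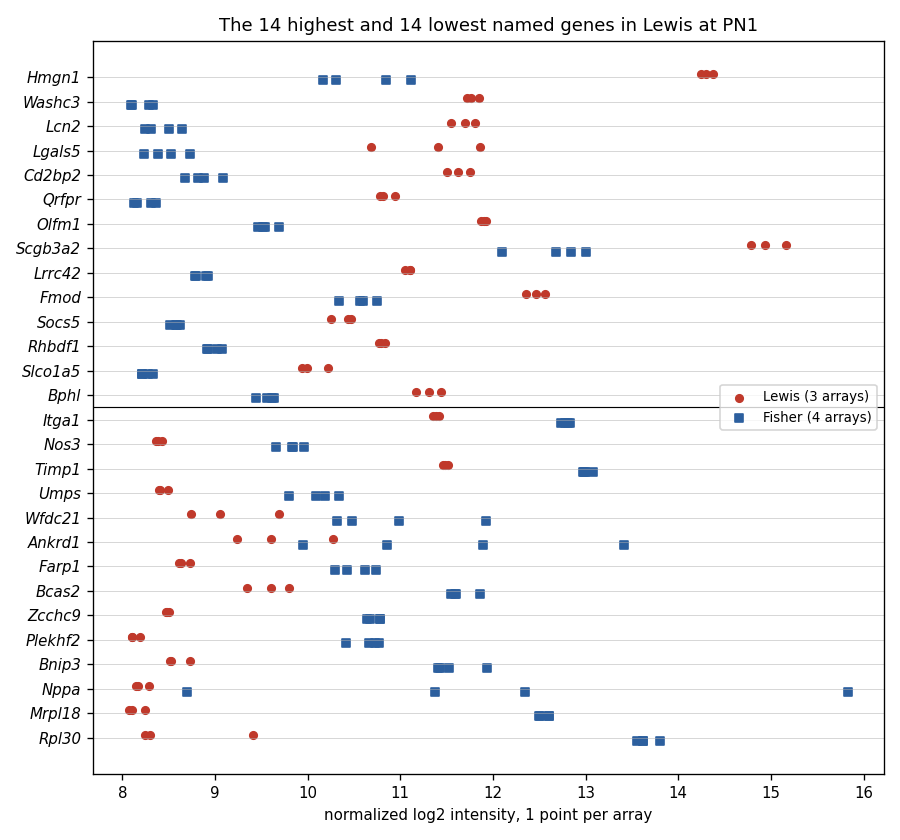
Normalized log2 intensity (horizontal axis) of the 14 highest and the 14 lowest named genes in Lewis at PN1, with 1 red circle per Lewis array and 1 blue square per Fisher array. Lewis and Fisher points separate in every row except Ankrd1, and Nppa spreads from 8.70 to 15.83 in Fisher.

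Some probes were detected in 1 strain alone. On every Lewis array and on no Fisher array, 71 probes were detected, of which 51 passed the test. On every Fisher array and on no Lewis array, 54 were detected, of which 35 passed. Of all tested probes 16.3% passed. Probes of this kind entered the test only through the strain that detected them, so their passing adds no support. Differences of the passing ones reached down to 0.06 in size, close to background. The named genes with the largest differences, picked after their values were seen, were Plekhh1 (9.76 in Lewis) and Odc1 (9.54), the enzyme that starts polyamine synthesis. They were at least 3.08-fold and at least 2.64-fold higher in Lewis than the dimmest detected signal allows in Fisher. On the Fisher side Plcxd3 and Gnpda2 were at least 1.82-fold and 1.73-fold lower in Lewis. Of 20 tested genes of class I presentation 3 were higher, against 8.58% of all probes, and 2 lower, against 7.74%. The higher ones were the histocompatibility gene RT1-CE5 and, outside that family, Calr (0.55) and Pdia3 (0.36). The call of Pdia3 was lost without Fisher 2 (adjusted p = 0.155). Both lower ones were histocompatibility genes, RT1-CE16 and RT1-S3. RT1-CE5 was at least 1.33-fold higher in Lewis and not detected in Fisher, while RT1-CE16 was at least 1.12-fold lower and not detected in Lewis. RT1-S3, detected in both, was lower by -0.80. The RT1 genes are closely similar, and a probe for 1 of them can also read its relatives.

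Cell cycle genes had the most calls of any list at PN1, though some smaller lists had a larger share called, such as class II presentation with 4 of 4. Of 36 tested genes, 24 were lower in Lewis, against 7.74% of all probes, and 0 were higher, with a median of -0.58. Plk1, the kinase that drives entry into and passage through mitosis, read 9.16, 9.26 and 8.95 in Lewis and 10.09, 10.16, 10.12 and 9.97 in Fisher. It was 1.95-fold lower (log2 -0.96, SE 0.11, adjusted p = 1.74e-06). Mki67, the standard marker of dividing cells, read 8.73, 8.86 and 8.72 against 9.20, 9.18, 9.11 and 9.04 (log2 -0.37, SE 0.05, adjusted p = 3.25e-05). Aurka, the kinase of the spindle poles, read 8.63, 8.72 and 8.63 against 9.26, 9.37, 9.34 and 9.14, and Racgap1, needed to pinch daughter cells apart, was lower by -0.57. In none of the 24 did the arrays of the strains overlap, which also held for 1610 of all 1693 called probes. The part of the heart and thymus signal in this difference was not tested. In bulk tissue, fewer cells of a kind and less RNA per cell cannot be told apart.

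Many of the lower genes act in mitosis. The mitotic cyclins Ccna2 (-0.89) and Ccnb2 (-0.80), the anaphase activator Cdc20 (-0.84), the motors Kif20a (-0.80) and Kif23 (-0.68), the spindle checkpoint kinases Bub1 and Bub1b (both -0.65) and the cyclin-dependent kinase Cdk1 (-0.66) all passed. The tested genes Mcm2 to Mcm7, which form the replicative helicase, lay between -0.25 and -0.07 and 0 passed. At PN7 all of them were higher in Lewis and passed. Rrm2, which makes deoxynucleotides, was lower (-0.64), a call lost without Fisher 2 (adjusted p = 0.0783). Pcna, the sliding clamp of DNA polymerase, stood at -0.06 and Tyms, which makes thymidylate, at 0.12, and neither passed. These members were named after their values were seen, and no test compared subsets of the list. Outside the list, Iqgap3, Kif15, Cenpt and Mastl, which act in division of the cell, were lower by -0.60, -0.64, -0.69 and -0.63. Without Fisher 2, the array with thymus signal, 20 of the 36 were lower (6.64% of all probes were) and the median was -0.56. Without Fisher 1 and Fisher 2, a choice made after seeing the data, 15 were lower (543 of the 10368 probes were) and the median was -0.54.

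The direction turned with age. At PN7, 35 of the 36 genes were higher in Lewis (7.71% of all probes were), with a median of 0.63, and at PN14 2 were lower (10.4% of all probes were), with a median of -0.09. Plk1 differed by -0.96 at PN1, 0.57 at PN7 and -0.09 at PN14, and Mki67 by -0.37, 0.21 and -0.06. The mean level of Mki67 was 8.77 at PN1, 8.61 at PN7 and 8.27 at PN14 in Lewis, and 9.13, 8.40 and 8.34 in Fisher. In the test of the difference between ages, 32 of the 36 had a smaller Lewis minus Fisher difference at PN1 than at PN7 (4.22% of all probes did) and 11 a smaller one than at PN14 (2.85% of all probes did). With median scaling 26 were lower at PN1, where 1127 of the 10368 probes were. In that scaling 19 were higher at PN7, and 28 differed between PN1 and PN7, as did 252 of all probes. The count of 11 against PN14 was 7 with median scaling, 4 without Fisher 1 and Fisher 2, and 1 in the authors' deposited log2 values. Each age lay on a slide of its own, apart from Lewis PN7 replicate 1 on slide 1 and Lewis PN14 replicate 1 on slide 2, so age and slide cannot be told apart in the levels.

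**Figure D4:**
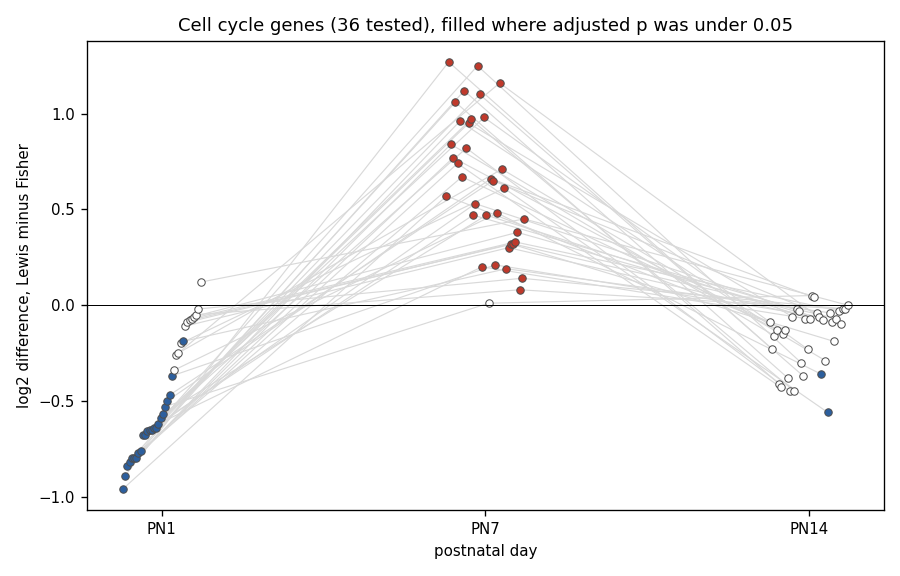
Log2 difference between Lewis and Fisher lung (vertical axis) for each of 36 cell cycle genes at PN1, PN7 and PN14, with 1 point per gene, joined by a line and filled where the adjusted p was under 0.05 (blue lower, red higher in Lewis). At PN1 24 genes are filled blue, at PN7 35 are filled red, and at PN14 2 are filled blue.

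Promoters of these genes are shown because the genes moved together and because genes of late division often carry a pair of short elements near their start. The elements are the cell cycle homology region (CHR, TTTGAA) and the CCAAT box (CCAAT), each searched on both strands, where the matches of both may overlap. The sequences come from RefSeq (build GRCr8), run from 250 bases before to 50 after the annotated start, and have CHR and CCAAT matches in capitals. Plk1 lies at chr1:186147408-186147707 on the plus strand, Mki67 at chr1:199952544-199952843 on the minus strand and Aurka at chr3:181560720-181561019 on the minus strand.
Plk1: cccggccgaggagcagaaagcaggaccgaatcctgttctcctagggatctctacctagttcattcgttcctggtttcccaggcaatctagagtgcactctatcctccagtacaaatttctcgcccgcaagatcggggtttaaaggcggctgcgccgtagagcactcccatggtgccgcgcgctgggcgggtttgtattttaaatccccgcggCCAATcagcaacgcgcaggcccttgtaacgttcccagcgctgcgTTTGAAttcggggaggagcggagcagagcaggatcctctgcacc
Mki67: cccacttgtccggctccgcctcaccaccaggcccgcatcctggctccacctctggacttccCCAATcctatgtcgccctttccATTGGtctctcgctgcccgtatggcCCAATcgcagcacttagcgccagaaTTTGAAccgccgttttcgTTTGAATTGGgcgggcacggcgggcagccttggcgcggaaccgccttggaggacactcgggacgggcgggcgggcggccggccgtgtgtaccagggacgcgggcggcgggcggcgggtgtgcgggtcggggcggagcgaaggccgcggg
Aurka: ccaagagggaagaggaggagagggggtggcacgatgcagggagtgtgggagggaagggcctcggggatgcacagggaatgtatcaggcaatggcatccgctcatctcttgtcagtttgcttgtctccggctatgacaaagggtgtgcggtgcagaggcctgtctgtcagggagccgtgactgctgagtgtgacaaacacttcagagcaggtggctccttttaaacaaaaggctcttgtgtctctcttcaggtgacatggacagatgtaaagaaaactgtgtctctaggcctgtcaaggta
The Plk1 window holds 1 CHR and 1 CCAAT match, the Mki67 window 2 and 4, and the Aurka window 0 of either. Of the 24 genes lower in Lewis, 17 had a promoter entry. A CHR match was present in 13 of these 17 (76.5%), in 3 of 11 other cell cycle genes (27.3%) and in 18.3% of all 33469 promoters. A CCAAT match was present in 13 of 17 (76.5%), 7 of 11 (63.6%) and 37.5% of all. Both were present in 11 of 17 (64.7%), 2 of 11 (18.2%) and 7.41% of all. These counts describe letters in a window and do not show that a factor bound there.

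Genes of cholesterol and fatty acid synthesis were higher in Lewis at PN1. Of 15 tested genes 8 were higher, against 8.58% of all probes, and 0 lower, with a median of 0.35. Scd, the desaturase that makes monounsaturated fatty acids for surfactant and membranes, read 12.26, 13.07 and 12.48 in Lewis and 11.87, 11.12, 11.28 and 11.04 in Fisher. Insig1, the sterol sensor that holds back the sterol regulatory factors, read 11.26, 11.42 and 10.89 against 10.32, 10.11, 10.32 and 10.11. Every Lewis array lay above every Fisher array in both genes. Scd was 2.42-fold higher (log2 1.27, SE 0.23, adjusted p = 5.49e-04) and Insig1 1.97-fold (log2 0.98, SE 0.14, adjusted p = 5.52e-05). Fdft1 (0.57) and Sqle (0.54), which commit sterols to cholesterol, Idi1 (0.44), Acly (0.38) and Srebf2 (0.40), the master regulator of the pathway, also passed. In the test of change with age, 8 of the 15 had a greater difference at PN1 than at PN7 (3.74% of all probes did) and 5 a greater one than at PN14 (4.52% of all probes did). At PN7 1 was higher and 3 lower (7.46% of all probes were). Without Fisher 2 7 were higher (6.83% of all probes were). With median scaling 3 were higher, where 198 of the 10368 probes were, and the median was 0.07, beside -0.14 for all probes. In that scaling 0 of the list differed between PN1 and PN7 or between PN1 and PN14, as 252 and 163 of all probes did.

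Among epithelial lists, some genes of type II, type I and airway secretory cells were higher in Lewis, while 0 of 9 ciliated airway genes passed in either direction, with a median of -0.01. Of 7 tested surfactant and type II cell genes 5 were higher, against 8.58% of all probes, and 0 lower, with a median of 0.40. Sftpb, the surfactant protein that spreads the film, read 15.71, 15.68 and 15.45 in Lewis and 15.01, 14.70, 15.18 and 15.16 in Fisher (log2 0.60, SE 0.15, adjusted p = 6.66e-03). Sftpc, another hydrophobic surfactant protein, was 0.33 higher and Lpcat1, which makes surfactant phospholipid, 0.43 higher, a call lost without Fisher 2 (adjusted p = 0.0633). Without Fisher 2, whose mean of this list was the lowest of the 7 arrays, 3 of the 7 were higher (6.83% of all probes were). With median scaling 1 was higher, where 198 of the 10368 probes were. Of 15 type I cell genes 3 were higher, against 8.58% of all probes: the water channel Aqp5 (1.17), Ager (0.42) and Clic5 (0.38). Without Fisher 2, also the lowest array for this list, Clic5 did not pass (adjusted p = 0.156), the keratin Krt7 was lower (-0.29, adjusted p = 0.0358), and the median was 0.04. With median scaling the list median was -0.12 in place of 0.11, and 1 gene was higher. The median of all probes moved from 0 to -0.14 in that scaling. Of 13 airway secretory genes 4 were higher, against 8.58% of all probes: Scgb3a2, Cyp4b1 (0.53), Hp (0.45) and Aldh1a1 (0.43). Aldh1a1 did not pass without Fisher 2 (adjusted p = 0.0543), which left 3. The secretoglobin Scgb3a1 stood at -1.69, with arrays that did not overlap, and did not pass (adjusted p = 0.0924). With median scaling the list median was -0.07 in place of 0.16, beside -0.14 for all probes, and 1 gene was higher. Nkx2-1, the transcription factor that sets lung identity, read 10.13, 9.94 and 9.95 against 9.45, 9.10, 9.44 and 9.42 and was 0.65 higher (SE 0.14, adjusted p = 2.03e-03). It was 1 of 7 genes of 32 in the lung development list that were higher, against 8.58% of all probes, with 0 lower, beside the retinoid-binding protein gene Crabp1 (1.26), Hes1 (0.42) and the airway signal Shh (0.29). The median of that list was 0.13. With median scaling it was -0.06, beside -0.14 for all probes. In that scaling 1 gene of the list was higher and 5 were lower, where 198 and 1127 of the 10368 probes were.

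All 4 tested genes of class II antigen presentation were higher in Lewis, against 8.58% of all probes, with a median of 0.57. Cd74, the invariant chain that chaperones class II molecules, read 11.73, 11.75 and 11.44 in Lewis and 10.84, 10.80, 10.58 and 10.96 in Fisher (log2 0.85, SE 0.10, adjusted p = 2.88e-06). RT1-DMb (0.70) and RT1-DMa (0.43), which load peptide onto class II molecules, and the protease Ctss (0.41) followed. With median scaling 1 of the 4 passed, Cd74, where 198 of the 10368 probes were higher. Cd74 and RT1-DMb differed more at PN1 than at either later age, but with median scaling 0 of the 4 genes passed either test of change with age. Without Fisher 2 Ctss did not pass (adjusted p = 0.0626).

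Of 13 complement genes 7 were lower in Lewis, against 7.74% of all probes, and 1 was higher, against 8.58%, with a median of -0.33. C4b, of the classical pathway, read 10.72, 10.78 and 10.55 in Lewis and 11.39, 11.52, 11.38 and 11.78 in Fisher (log2 -0.84, SE 0.14, adjusted p = 1.79e-04). C1s (-0.76), C1qb (-0.68) and C1qc (-0.62), which form and start the classical pathway, and C2 (-0.41) were also lower. Without Fisher 2 8 were lower (6.64% of all probes were). C1qb and C1qc are also macrophage markers. Of 8 macrophage genes 3 were lower, against 7.74% of all probes, and 1 higher, against 8.58%, the lysosomal protein Cd68 (0.87). Cd14, the macrophage receptor for bacterial lipid, was lower by -0.50 but did not pass without Fisher 2 (adjusted p = 0.0634). Of 20 interferon response genes 6 were lower (5 without Fisher 2), against 7.74% of all probes, among them Ifi27 (-0.70), Ifi44 (-0.66), Ifitm3 (-0.39) and the chemokine gene Cxcl10, at least 1.10-fold lower and not detected in Lewis. In this list 1 gene was higher, Ifitm1 (0.44), with overlapping groups, and it did not pass without Fisher 2 (adjusted p = 0.0652).

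Of 9 neutrophil genes 6 were higher, against 8.58% of all probes, and 1 lower, against 7.74%, with a median of 0.15. After Lcn2 came Ngp, a granule protein, which read 10.27, 10.13 and 9.99 in Lewis and 8.72, 8.44, 8.60 and 8.76 in Fisher (log2 1.5, SE 0.21, adjusted p = 3.52e-05). S100a8, a calcium-binding alarm protein, was 1.10 higher and Fcnb, a secreted lectin of myeloid cells, 1.00 higher. Cd177, a surface protein of neutrophils, was lower by -0.59. With the 12 arrays of slide 1 alone 2 of the 9 passed. Of 11 red cell genes 4 were higher, against 8.58% of all probes, and 0 lower. Hbb-b1, a beta globin gene, read 16.01, 16.11 and 15.67 in Lewis and 14.43, 14.67, 15.29 and 13.32 in Fisher (log2 1.5, SE 0.26, adjusted p = 3.39e-04). Ank1 (1.55) and Hemgn (0.64) were also higher, but Hbb lay at 15.91 to 16.11 on the 7 arrays with a difference of 0.05 (adjusted p = 0.436). Globin probes are closely similar and near the top of the scale.

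Immediate early genes, which respond within minutes to signals and to handling, were higher in 5 of 21, against 8.58% of all probes, and lower in 0, with a median of 0.19. With median scaling 1 was higher, where 198 of the 10368 probes were, and the median was 0, beside -0.14 for all probes. Egr1, a transcription factor named after its values were seen, was 1.23 higher. Dusp1, a phosphatase that switches off stress kinases, read 14.29, 14.36 and 14.31 in Lewis and 13.27, 12.88, 13.45 and 13.22 in Fisher (log2 1.12, SE 0.23, adjusted p = 1.66e-03). Zfp36 (0.75), Jun (0.62) and Egr2 (0.59) were higher, while Fos stood at 0.12 and did not pass. The extracellular matrix list had 4 of 23 genes lower, against 7.74% of all probes, and 0 higher, with a median of -0.14. Without Fisher 2 it had 3 lower (6.64% of all probes were), and with median scaling 8 (1127 of the 10368 probes were). Col15a1, a collagen of basement membranes, read 10.18, 10.16 and 10.16 against 11.34, 11.38, 11.21 and 11.34 (log2 -1.15, SE 0.09, adjusted p = 1.36e-08). Col5a1 (-0.49), Fbn1 (-0.36) and Col1a1 (-0.36) were lower. Col1a1 did not pass without Fisher 2 (adjusted p = 0.0901). Eln, the elastin gene that builds the alveolar wall, read 14.27, 14 and 13.83 against 14.15, 14.56, 14.17 and 14.35. The groups overlapped, and its difference of -0.27 did not pass (adjusted p = 0.241). With median scaling Eln was lower and passed the test.

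Genes tied to asthma were thinly measured. Of 11 tested type 2 immune response genes 2 were higher, against 8.58% of all probes, and 2 lower, against 7.74%. Il33, an epithelial alarm cytokine, read 11.24, 11.37 and 11.67 in Lewis and 10.83, 10.55, 10.98 and 10.73 in Fisher (log2 0.65, SE 0.11, adjusted p = 1.66e-04). It did not pass with median scaling. Retnlg was at least 1.05-fold higher and not detected in Fisher. Stat6, which carries the signal of Il4 and Il13 to the nucleus, read 8.30, 8.25 and 8.23 against 8.95, 9.06, 8.97 and 8.85 (log2 -0.70, SE 0.10, adjusted p = 3.00e-05), and Arg1, an enzyme of arginine breakdown, was lower by -0.50. Of 14 tested asthma susceptibility genes 6 were higher, against 8.58% of all probes, and 2 lower, against 7.74%. With median scaling 0 were higher, where 198 of the 10368 probes were. Gstm1, a glutathione transferase, was 0.61 higher, and the bacterial sensor Nod1 and the leukotriene partner protein Alox5ap were 0.33 higher.

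**Figure D5:**
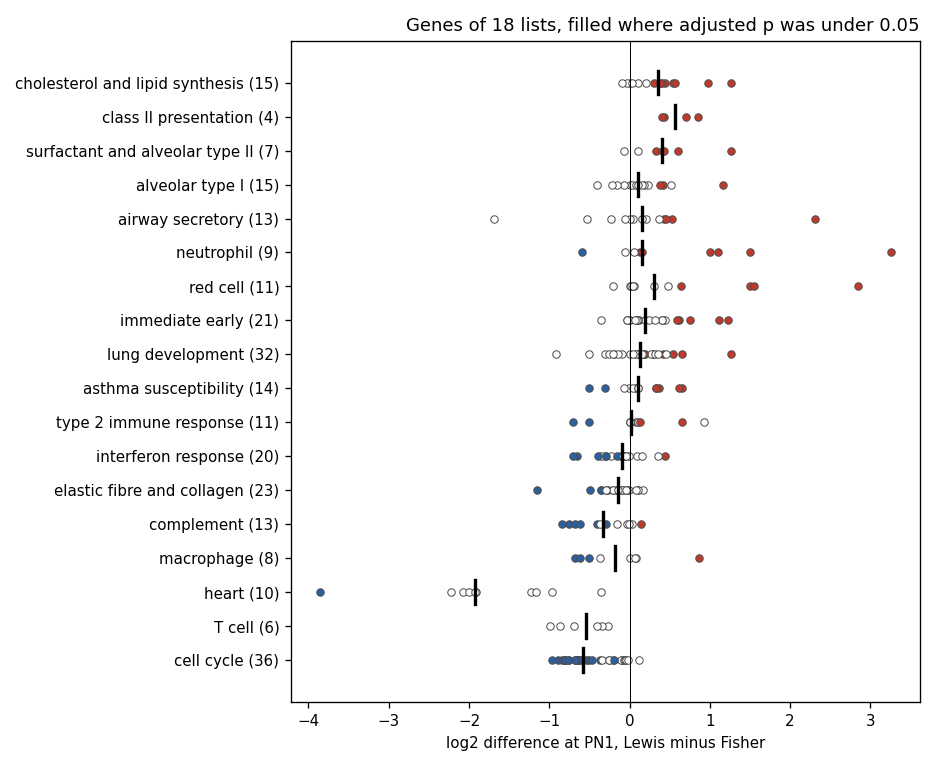
Log2 difference between Lewis and Fisher lung at PN1 (horizontal axis) for the tested genes of 18 lists, with 1 point per gene, filled where the adjusted p was under 0.05, and a black bar at the list median. Cell cycle genes lie almost wholly below 0 with a median of -0.58, while the 4 class II presentation genes all lie above 0.

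The differences of day 1 were set against those of later ages in the same fit. Of the 1693 calls at PN1, 603 were also called in the same direction at PN7, 682 at PN14 and 455 at both. Among the 104 probes at least 2-fold apart, 84 were called in the same direction at all 3 ages. The opposite direction was called for 171 at PN7 and for 54 at PN14. At PN14, 850 probes (8.20%) were higher in Lewis. The strain difference itself changed between PN1 and PN7 for 826 probes (7.97%) and between PN1 and PN14 for 765 (7.38%). With median scaling these counts were 252 and 163. Of the PN1 calls, 215 differed from both later ages, 116 higher and 99 lower in Lewis, and 974 from neither.

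Among named genes the change with age took several forms. Ces1e, a carboxylesterase, read 9, 9.24 and 9.16 in Lewis and 8.15, 8.10, 8.13 and 8.20 in Fisher, where 1 of 4 arrays detected it. Its difference was 0.99 at PN1, 0.06 at PN7 and 0.13 at PN14 (adjusted p of the change from PN7 6.56e-07). Fcnb differed by 1.00, 0.26 and -0.24 at these ages, and Il33 by 0.65, -0.69 and 0.13 (adjusted p of the change from PN7 7.46e-06). Clec2l, a lectin-like receptor, differed by -0.35 at PN1 and -1.65 at PN14, and P2ry14, a receptor for sugar nucleotides, by 0.40 at PN1, a call lost without Fisher 2 (adjusted p = 0.142), and -1.46 at PN14. Lewis and Fisher arrays at PN1 did not overlap for either gene. Abcc9, a subunit of potassium channels of muscle and pericytes, turned from -0.52 to 0.83, and Crabp1, at 1.92 at PN7, moved from 1.26 to -0.05. The adjusted p of these changes from PN14 ranged from 4.31e-08 for Clec2l to 1.19e-05 for Abcc9.

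Most genes at least 2-fold apart had no other such gene close by on the chromosome. Of 73 such genes with a place in the RefSeq gene order of build GRCr8, 8 had another within 5 measured genes on either side. In all 7471 measured genes were placed. How many of 73 genes placed at random would have such a neighbour was not worked out, so the count is a description alone. The pairs were Bphl with Nqo2 on chromosome 17, Olfm1 with Fcnb on 3, Plekhf2 with Ndufaf6 on 5 and Socs5 with Fbxo11 on 6. Both members moved the same way for Olfm1 with Fcnb and for Socs5 with Fbxo11, and in opposite ways for the other 2 pairs.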

How the data were processed

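Whole-lung RNA was measured on 36 1-colour beadchip arrays, of which the 7 Lewis and Fisher arrays of PN1 are compared here. Per the file headers, the deposited scanner table gives a raw signal (probe intensity, not normalized) and a detection p-value for each probe, and its other 72 per-sample columns were not used. The authors also deposited log2 values, made with lumi per the submitters' processing notes, whose settings are not given in the sources used here. Raw intensities were background-corrected and quantile normalized over the 36 arrays with limma's neqc (normexp on detection p, offset 16). The main fit took the 23 Lewis and Fisher arrays, with a mean for each of 6 groups, in limma 3.58.1 (lmFit, eBayes), with 2-sided tests and Benjamini-Hochberg adjustment over 10368 probes detected at p under 0.01 on at least 3 of the 7 arrays. The platform annotation in GEO supplied symbols (13192 of 22226 probes, 7526 of those tested), and 9034 probes were left unnamed. A gene in a list was read from its brightest probe. Named genes passed, had a true symbol and were detected on all arrays of either strain. They are the 14 highest and 14 lowest, the 6 smallest adjusted p for each change with age, up to 4 passing members of each list, and 16 genes given whatever their values. Other list members were named after their values were seen. The groups, lists and rules were chosen with earlier results of these data known. The number of arrays limits the precision. A fold called at least N-fold sets the brighter group against the lowest detected signal of each dim array. Samples were grouped by their labels. Alternatives changed the scaling, background correction, filter, arrays fitted, weights and replicate block, and left out each array in turn. The script was tested on simulated data.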

Additional observations from a re-analysis of the deposited data

Results flagged for a closer look

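In Fisher at PN1, 8 of the sets of 4 values examined (5.59%), of genes or list means, had 1 array farther from the rest than Dixon's limit allows. The limit would flag about 1 in 20 independent sets, but these sets share the same 4 arrays and hold related genes. Whether the share differs from chance was not tested. Fisher 2 was the outlying array in 6 of them: high for Cd3e (9.38) and for the mean of the T cell list (10.71), and low for Ager (12.45), Cyp4b1 (11.03), Nkx2-1 (9.1) and the mean of the alveolar type I list (11.03). Fisher 3 was high for Bcas2 (11.86), and Fisher 4 for the mean of the class II presentation list (10.96).

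The following named genes had a strain difference that changed with age by limma's interaction test, given as the log2 difference at PN1 minus that at the later age, with replicate 1 of Lewis PN7 and of Lewis PN14 on another slide than its group. Lewis stood lower at PN1 than at PN7 for Plk1 (-1.53), Cenpt (-1.13), Kif15 (-1.07), Racgap1 (-1.04), Mastl (-1.01), Iqgap3 (-0.92), Aurka (-0.82), C1qb (-0.69) and Crabp1 (-0.66). Next in size were those of Timp1 (-0.63), C1qc (-0.58) and Mki67 (-0.58). It stood higher than at PN7 for Hbb-b1 (1.5), Scd (1.41), Il33 (1.34), Insig1 (1.02), S100a8 (1.02), Hmgn1 (0.96), Fmod (0.93), Ces1e (0.92) and Lcn2 (0.86). Next in size were those of Calr (0.79), Cd74 (0.75), Fcnb (0.74), Qrfpr (0.72), P2ry14 (0.63), Olfm1 (0.62), Fdft1 (0.57), Bphl (0.56) and RT1-DMb (0.55). Next in size were those of Plekhf2 (0.43) and Lrrc42 (0.33).

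Against PN14, Lewis stood lower at PN1 for Nppa (-4.86), Wfdc21 (-1.8), Abcc9 (-1.35), Slco1a5 (-0.95), Plk1 (-0.87), Bnip3 (-0.84), C4b (-0.83), C1s (-0.82) and Cenpt (-0.65). Smaller were those of Kif15 (-0.58), Mrpl18 (-0.58), Iqgap3 (-0.57), Mastl (-0.57), Aldh1a1 (-0.55), Aurka (-0.55), RT1-CE5 (-0.54), Racgap1 (-0.5) and Stat6 (-0.46). Smaller were those of Umps (-0.4), Ifitm3 (-0.37), Zcchc9 (-0.32) and Mki67 (-0.3). It stood higher than at PN14 for P2ry14 (1.86), Hbb-b1 (1.35), Dusp1 (1.34), Crabp1 (1.31), Scd (1.31), Clec2l (1.3), Fcnb (1.25), Insig1 (0.92) and Jun (0.91). Then came those of Ces1e (0.85), Fdft1 (0.75), Cd74 (0.74), Calr (0.65), Olfm1 (0.58), RT1-DMb (0.58), Rhbdf1 (0.57), Qrfpr (0.54) and RT1-DMa (0.54). Then came those of Il33 (0.52), Plekhf2 (0.4), Lrrc42 (0.39) and Bphl (0.38).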

How the results depend on the processing

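The named genes set beside 19 alternatives kept their direction apart from 3 that did not pass in the main result: Cd3e ranged from -0.38 to 0.01 as single arrays were left out, turning without Fisher PN1 replicate 2, and Hbb and Scgb1a1 at -0.18 and -0.19 with median scaling. The call was lost under at least 1 alternative for 50 genes. It was lost for 26 with median scaling and for 28 with the 12 arrays of slide 1 alone. The count of calls at PN1 was 930 in that fit of slide 1, 1136 with all 36 arrays and 1106 without both Fisher PN1 arrays of highest heart signal, a choice made after seeing the data. Leaving out 1 array gave 1189 to 1633 calls at PN1, 96 to 116 at least 2-fold apart, 566 to 834 for PN1 against PN7 and 519 to 731 for PN1 against PN14. Probes at least 2-fold apart numbered 318 in the deposited log2 values. For PN1 against PN7 and PN14, all 36 arrays gave 470 and 344 calls and median scaling 252 and 163, and leaving out both heart-rich Fisher arrays gave 547 for PN7. Same-numbered Lewis and Fisher arrays deviated together with correlations of 0.13, -0.02 and 0.27, and pairs of unlike number with -0.3 to 0.21. So few arrays cannot show whether the numbers pair the samples. With the 7 arrays and a replicate block 1051 probes passed, against 1463 without the block. The cause of these shifts was not tested. Signal near background limits the fold of dim probes.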

Other observations

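Several genes higher in Lewis at PN1 and not at the later ages are known for protein folding in the endoplasmic reticulum. They were picked after their values were seen and belong to no list used here, so they describe single genes and not a pathway. Hspa5, the main chaperone of that compartment, differed by 0.91 at PN1, -0.39 at PN7 and -0.07 at PN14. Creld2 differed by 0.87, -0.38 and -0.11, the secreted folding factor Manf by 0.72, -0.30 and 0.04, and the disulfide isomerase Pdia4 by 0.51, -0.41 and -0.36. Xbp1, the transcription factor of the unfolded protein response, differed by 0.54, -0.06 and 0.12, and Dnajb9 by 0.53, -0.32 and -0.15. These genes were picked from those that passed limma at PN1 and in both tests of change with age, so their passing adds no support. The tests also share the PN1 arrays. With median scaling 252 of all probes passed for PN1 against PN7 and 163 for PN1 against PN14, down from 826 and 765.

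Other large differences that passed in both tests of change with age were those of Spp1, the matrix cytokine osteopontin (1.54 at PN1, 0.43 at PN7 and 0.66 at PN14), Defb4, an antimicrobial defensin (1.54, 0.31 and 0.80), and Scn7a, a sodium-sensing channel (1.26, -0.03 and 0.05). Maob, a monoamine oxidase, turned from 0.83 at PN1 to -0.81 at PN7. The chloride channel gene Clic2 was lower in Lewis by -1 at PN1 and stood at -0.19 and 0 later.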
